A study of Mus musculus with 454 samples.

Results

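Single neurons of the mouse nodose ganglion picked under the target code IntP were compared with neurons picked under the codes IntM and IntD. The members were all picked cells of these 3 codes with 2000 or more genes above 0 reads, 27.8% of all picked cells that reached that minimum. They were 45 IntP cells, 45 IntM cells and 35 IntD cells. The mouse, not the cell, was the replicate, so each gene was represented by its mean log2(CPM + 1) over the cells of a mouse, where CPM scales the reads of each cell to the same total. IntP came from 4 mice, numbered 11 (17 cells), 12 (15 cells), 16 (7 cells) and 17 (6 cells). IntM came from mice 15 (15 cells), 20 (13 cells) and 26 (17 cells), and IntD from mice 14 (17 cells), 18 (14 cells) and 19 (4 cells). All 10 animals were labelled wild-type C57BL/6 mice. Their age was labelled as 8 to 12 weeks. The labels give no allele, transgene or drug that distinguished the groups. They give no batch for any mouse either, and since no mouse carried more than 1 of the codes, batch and code cannot be told apart. None of the sources spells the codes out, and the mouse names begin with "Retro". The whole series held 454 samples, 1 of them a droplet (10x) library of the ganglion at an age of 6 weeks and the others single picked cells sequenced after Smart-seq2 amplification. Each code was carried by different mice, so the p-values rest on the spread between mice. In limma that spread was estimated within codes over 29 mice of 7 codes, not from the 10 compared mice alone.

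The nodose ganglion houses the cell bodies of vagal sensory neurons, which reach the heart, airways and digestive tract and report stretch, nutrients and chemical signals to the brainstem. These neurons are excitatory and fall into molecular types that differ in receptors, ion channels and peptides. The 4 genes given as marks of the compared neurons have unlike roles. Dbh encodes dopamine beta-hydroxylase, which turns dopamine into noradrenaline. Piezo1 is a mechanically gated cation channel, Cysltr2 a receptor for cysteinyl leukotrienes, and Gfra2 the co-receptor for neurturin that signals through Ret.

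The cells were deeply sequenced. The median number of reads per cell was 1448700 in IntP (843907 to 2083776), 1370328 in IntM (3934 to 2978009) and 1796303 in IntD (959663 to 4692462). The median numbers of genes were 11472, 11419 and 11531. The shallow exception was a single IntM cell of mouse 26 with 2026 genes. The labelled tissue was checked against its defining genes: Snap25, Slc17a6 and P2rx2 had 10 or more reads in 97.1% to 100% of the cells of each code. Prdm12, a mark of somatic-type jugular neurons, reached that count in 2.2% of IntP cells and in 0 of 45 IntM and 0 of 35 IntD cells. By counting error alone, without the spread between mice, this allows shares of up to 6.67% in IntM and 8.57% in IntD. Prrxl1, read beside Prdm12, reached that count in 6.7% of IntP, 28.9% of IntM and 8.6% of IntD cells. Of 5 tested jugular-like markers, only Runx1 passed. It was higher in IntP than the average of IntM and IntD by 1.41 (limma, adjusted p = 0.0138). Runx1 had 10 or more reads in 51.1% of IntP, 28.9% of IntM and 34.3% of IntD cells. None of the 7 nodose-like markers differed between the sides.

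Against the average of IntM and IntD, 1001 of 12702 genes tested, or 7.88%, passed an adjusted p of 0.05 in limma. Of these, 780 were higher in IntP (6.14% of the genes tested) and the others lower (1.74%). At least a 2-fold difference was seen for 39.2% of the higher and 29.4% of the lower genes. The median difference among the calls was 0.88 for higher and -0.74 for lower genes on the log2(CPM + 1) scale, a scale that understates the change of low genes. The median over all genes tested was 0.10. All 4 IntP mice lay above all 6 other mice for 805 genes, 6.34% of those tested, and below them for 150 genes, 1.18%. The plot of the difference against the level shows Dbh apart from the rest. Only differences on this log scale are compared between genes, since the levels are not corrected for gene length.

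**Figure D1:**
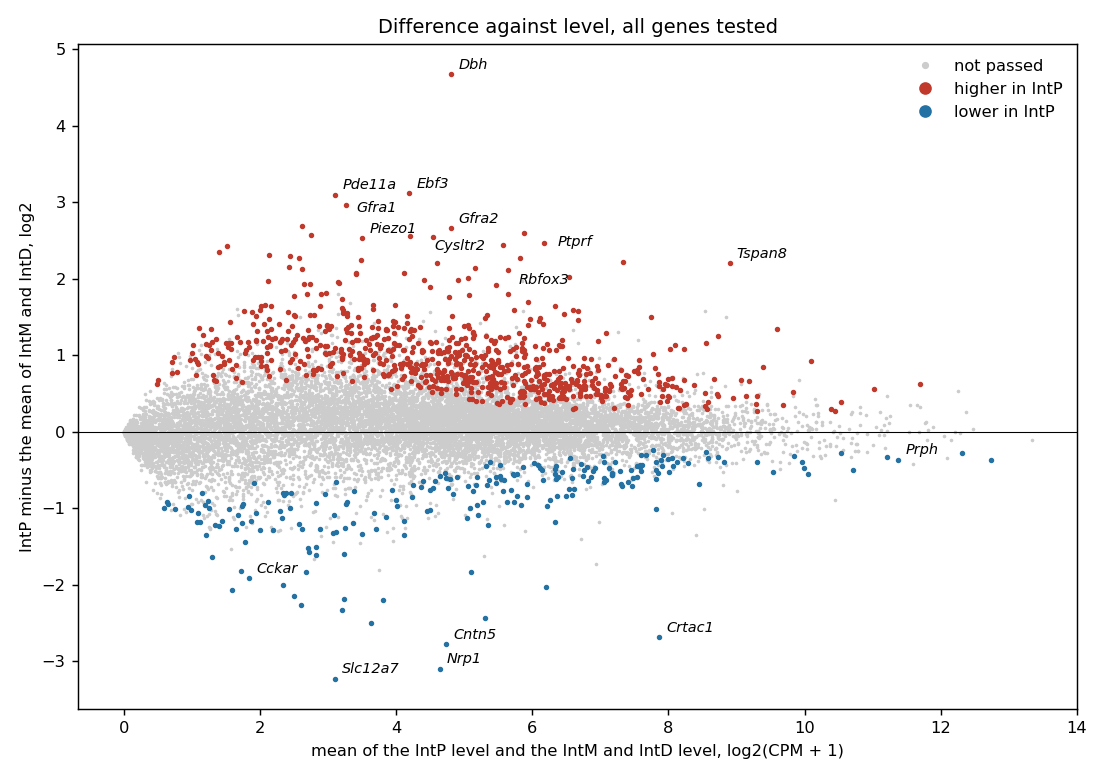
Each point is 1 gene, with its mean level over the IntP, IntM and IntD mice (log2(CPM + 1)) on the horizontal axis and the difference of IntP from the average of IntM and IntD (log2) on the vertical axis; coloured points passed an adjusted p of 0.05 in limma. Dbh had the highest difference among the named genes, 4.68, and Slc12a7 the lowest, -3.22.

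The split between higher and lower calls differed between the fits. Higher genes made up 77.9% of the calls in the limma fit and 72.8% with TMM scaling of the cells. They made up 58.9% with edgeR and 49.2% with DESeq2, which differ from limma in the summed reads and the model as well as in the scaling. The number of calls also depended on single mice. It was 2.4% of the genes tested without IntP mouse 11, 2.44% without IntP mouse 16, 1.73% without IntP mouse 17 and 4.98% without IntM mouse 20, but 13.3% without IntP mouse 12. In each of these fits all 1001 original calls had the same sign as in the full data. The fits share most mice with the data in which these genes were chosen, so the kept sign is no separate evidence. A core of 16.8% of the calls, 18.2% of the higher and 11.8% of the lower genes, was called whichever of the 10 mice was left out. Of the 93 genes reported here under the rule for named genes, 85 passed and 36 belonged to this core. Without IntP mouse 17, 47 named genes lost their call, as did 36 without mouse 11, 29 without mouse 16 and 5 without mouse 12. Leaving out an IntM or IntD mouse cost between 7 and 22 of them. On summed reads, 42 lost their call with edgeR and 25 with DESeq2, whereas Dbh, Piezo1, Cysltr2, Gfra2, Ebf3, Pde11a, Nrp1 and Slc12a7 passed with both.

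Of the 4 marker genes, Dbh differed most. Its mouse means in IntP were 6.20, 6.32, 7.84 and 8.24 in mice 11, 12, 16 and 17. They were 3.10, 1.94 and 1.57 in IntM mice 15, 20 and 26, and 1.53, 3.0 and 3.69 in IntD mice 14, 18 and 19. The lowest IntP mouse was thus well above the highest mouse of the other codes. The difference was 4.68 ± 0.49 (SE), a 25.6-fold higher geometric mean of CPM + 1 (limma, adjusted p = 3.61e-06). It was 4.94 against IntM and 4.41 against IntD, and it passed in every fit that left out a mouse. The size depended on the scale. On summed reads the log2 difference was 3.32 with edgeR and 3.3 with DESeq2, and with 10 added to CPM in place of 1 it was 3.15. Dbh lies on chromosome 2 at 27165233 to 27183200 on the plus strand (GRCm38), and shares no exonic base with another annotated gene.

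Piezo1 (chromosome 8, 122481698 to 122551329, minus strand) was likewise separated. The IntP mice 11, 12, 16 and 17 had 4.85, 3.83, 5.20 and 5.19. The IntM mice 15, 20 and 26 had 1.38, 2.28 and 1.28, and the IntD mice 14, 18 and 19 had 2.49, 2.41 and 3.54. IntP mouse 12 was the lowest of its group and IntD mouse 19 the highest of the rest, and the 2 did not meet. The difference was 2.53 ± 0.43 (SE; limma, adjusted p = 0.00127). Of the exonic bases of Piezo1, 24.6% overlap the antisense gene Ctu2, and no source states whether the authors' counting used strand. Ctu2 itself differed by 0.07 ± 0.21 (SE; limma, adjusted p = 0.878).

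Gfra2 (chromosome 14, 70890120 to 70979838, plus strand) stood at 6.25, 5.68, 6.00 and 6.63 in IntP mice 11, 12, 16 and 17. It stood at 3.45, 2.68 and 4.23 in IntM mice 15, 20 and 26, and at 2.61, 4.93 and 2.96 in IntD mice 14, 18 and 19. All IntP mice were above the others, with IntD mouse 18 the nearest. The difference of 2.67 ± 0.60 (SE) passed (limma, adjusted p = 0.00934), but not without IntP mouse 17 (adjusted p = 0.0501).

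Cysltr2 (chromosome 14, 73025603 to 73049114, minus strand) separated IntP from IntM more than from IntD. Its means were 6.65, 5.60, 7.40 and 7.50 in IntP mice 11, 12, 16 and 17. They were 3.40, 3.77 and 3.28 in IntM mice 15, 20 and 26, and 5.16, 5.14 and 5.32 in IntD mice 14, 18 and 19. The IntD mice agreed closely with one another and came near IntP mouse 12. The difference from the average of both codes was 2.44 ± 0.58 (SE; limma, adjusted p = 0.0121). Against IntM alone it was 3.30 (adjusted p = 0.0153), and against IntD alone 1.58, which did not pass (adjusted p = 0.197). The call was lost without IntP mouse 16 (adjusted p = 0.0576) or 17 (adjusted p = 0.0691).

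**Figure D2:**
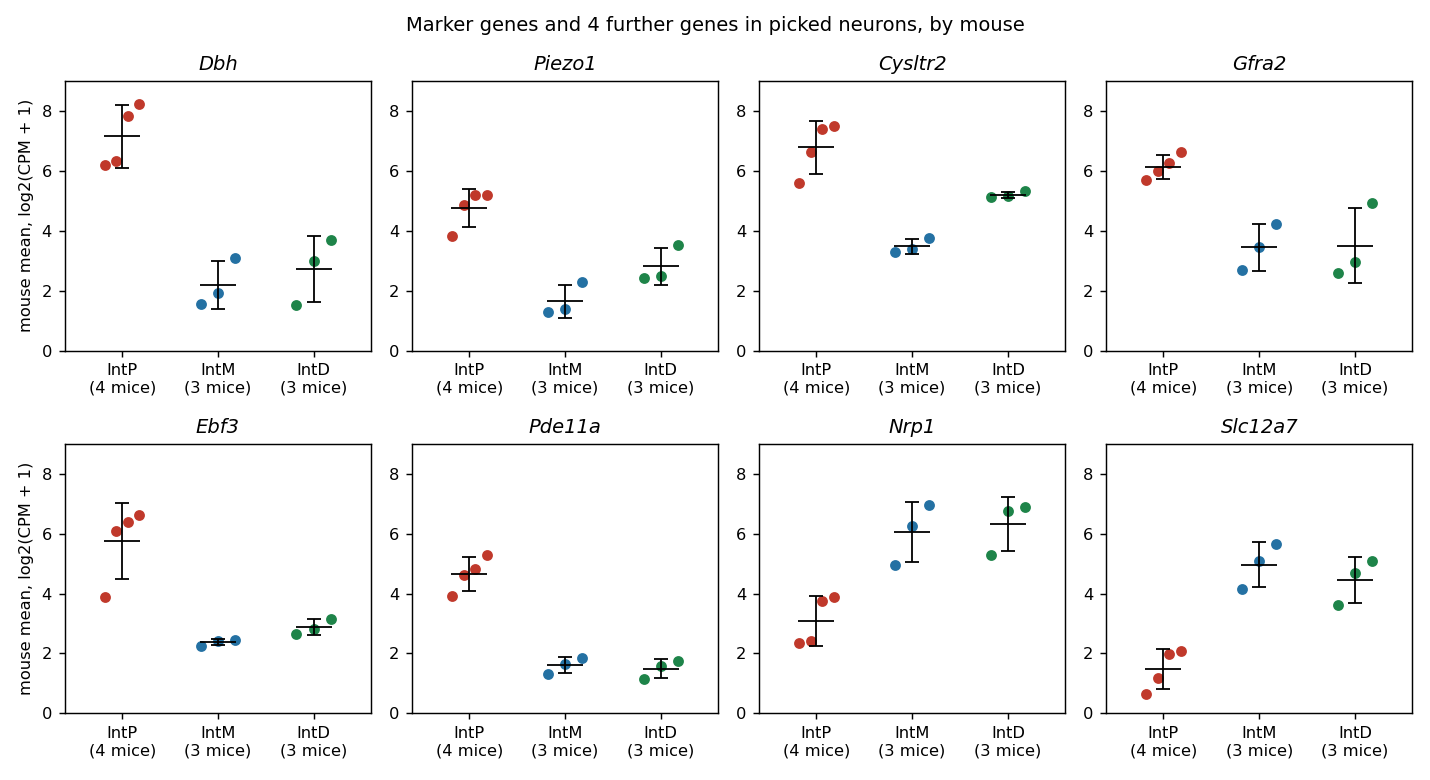
Mean log2(CPM + 1) per mouse for Dbh, Piezo1, Cysltr2, Gfra2, Ebf3, Pde11a, Nrp1 and Slc12a7; each dot is 1 mouse of IntP, IntM or IntD, and lines with bars give the group mean ± SD. Every IntP dot lies above every other dot for the first 6 genes and below every other dot for Nrp1 and Slc12a7.

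The markers could differ through the number of cells that hold them or through the level in those cells, and both were measured. Dbh had 10 or more reads in 88.5% ± 8.4 of the cells of an IntP mouse (SD, n = 4) and in 43.3% ± 23.6 of those of an IntM or IntD mouse (SD, n = 6). This share differed with the smallest p that 4 against 6 mice allow (two-sided exact permutation test, p = 0.00952, adjusted p = 0.0159 over 20 genes). The share with Piezo1 was 88.9% against 38.7%, and with Gfra2 98.3% against 68.6%, each with the same exact p. For Cysltr2 the share was 95.2% against 75.6%, which did not pass (exact permutation test, adjusted p = 0.0952). Among cells that held the gene, the mean level of Dbh was 7.84 ± 0.72 in IntP and 5.21 ± 1.28 in the others (SD over mice). For Cysltr2 it was 7.07 and 5.57, for Gfra2 6.19 and 4.62, and for Piezo1 5.15 and 4.27. A mouse mean combines these 2 quantities, and the genes were chosen for their mouse means, so the shares and their p-values are no separate evidence.

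The 4 markers occurred together in most IntP cells. All 4 had 10 or more reads in 14 of 17, 8 of 15, 6 of 7 and 6 of 6 cells of IntP mice 11, 12, 16 and 17. In IntM mice 15, 20 and 26 the counts were 0 of 15, 3 of 13 and 2 of 17, where 0 of 15 allows a share of up to 20%. In IntD mice 14, 18 and 19 they were 2 of 17, 7 of 14 and 2 of 4. The lowest IntP share, 53.3% in mouse 12, was thus close to the 50% of IntD mice 18 and 19.

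Among genes of catecholamine synthesis and handling, Dbh was the single one of 11 tested that rose. Over all genes tested, 6.14% rose and 1.74% fell. Cyb561, a cytochrome that supplies electrons to vesicular monooxygenases, fell by 1.84 ± 0.45 (SE; limma, adjusted p = 0.0133). It lost its call without IntP mouse 11 (adjusted p = 0.0644). Th, the tyrosine hydroxylase that starts the pathway, had 1.38, 1.20, 3.16 and 2.10 in IntP mice 11, 12, 16 and 17, and 2.59 to 5.14 in the other 6 mice. Its difference of -1.66 ± 0.73 (SE) did not pass (limma, adjusted p = 0.159). Th had 10 or more reads in 22.2% of IntP, 51.1% of IntM and 57.1% of IntD cells. The decarboxylase Ddc differed by -0.49 and the vesicular transporters Slc18a1 and Slc18a2 by -0.46 and -0.96. Gch1, which makes the hydroxylase cofactor, differed by 0.76, and Qdpr, which recycles it, by 0.01. The degrading enzymes Maoa and Maob differed by 0.15 and 0.60. None of these 7 passed, and the median of the list was -0.04 against 0.10 over all genes.

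Markers of sympathetic neurons were examined because these neurons also express Dbh. Dbh was the only one of 5 tested sympathetic-like markers that rose, and none fell, where 6.14% of all genes tested rose and 1.74% fell. The median of the list was -0.96. Some of its members were widely held. Slc18a2 had 10 or more reads in 77.8% of IntP, 95.6% of IntM and 97.1% of IntD cells, and Th in 22.2%, 51.1% and 57.1%. The 8 markers summed to 541 to 754 CPM in IntP mice, 738 to 1692 in IntM and 459 to 983 in IntD. The transporter gene Slc6a2, the peptide gene Npy and the transcription factor gene Hand2 had 10 or more reads in 0% of the cells of each of the 3 codes. By counting error alone, without the spread between mice, this allows up to 6.67% in IntP and IntM and 8.57% in IntD. Hand2 had no read in any of these cells.

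In the mechanosensation list, 5 of 17 tested genes rose and 1 fell, against 6.14% and 1.74% of all genes, and the list's median was 0.02. Besides Piezo1 these were the acid-sensing channel subunit Asic2 (1.38), Tmem150c (0.65) and the osmosensitive channel genes Tmem63c (0.60) and Tmem63b (0.44). Asic2 was 5.26 to 6.47 in the IntP mice and 3.51 to 4.97 in the others, with no overlap. Kcnk2, the mechanically gated potassium channel TREK-1, fell by 2.18 ± 0.43 (SE; limma, adjusted p = 0.0040). It was 2.27, 2.54, 0.77 and 3.02 in IntP mice 11, 12, 16 and 17, 5.09, 4.58 and 5.59 in IntM mice 15, 20 and 26, and 3.41, 4.36 and 2.95 in IntD mice 14, 18 and 19. Kcnk2 was thus lowest in IntP and highest in IntM, and against IntD alone the difference of -1.42 did not pass (limma, adjusted p = 0.109). Piezo2, the channel of touch and lung stretch, differed by -0.04.

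Among receptors of trophic factors, a pair of GDNF family co-receptors had the largest of the differences given here. In that family, Gfra1 and Gfra2 rose and 4 of 6 genes did not pass, with Ret at 0.34 and Gfra3 at 0.03. Gfra1, the co-receptor for GDNF itself, was 4.73, 4.83, 3.37 and 6.05 in IntP mice 11, 12, 16 and 17 and 0.68 to 2.47 in the other 6. The groups did not overlap, and the difference was 2.97 ± 0.64 (SE; limma, adjusted p = 0.00668; 0.0523 without IntP mouse 17). Of 21 neurotrophin and cytokine receptor genes, 3 rose and none fell, where 6.14% of all genes tested rose and 1.74% fell. Among them the sorting receptor Sort1 differed by 1.20 and the ciliary neurotrophic factor receptor Cntfr by 0.97. Sort1 lost its call without IntP mouse 17 (adjusted p = 0.0567), whereas Cntfr passed whichever mouse was left out.

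Receptors for gut hormones did not move one way. Of 25 tested, 2 rose, Insr (0.95) and Ntsr2 (0.62), and 2 fell, where 6.14% of all genes tested rose and 1.74% fell. The list's median was -0.03. Insr and Ntsr2 each passed in 4 of the 10 fits that left out a mouse. Ntsr2 was low, with a mean of 0.80 in IntP and 10 or more reads in 6.7% of IntP and 5.7% of IntD cells. The cholecystokinin receptor Cckar was 0.97, 0.41, 2.17 and 0.00 in IntP mice 11, 12, 16 and 17, 3.11, 3.96 and 4.34 in IntM mice 15, 20 and 26, and 1.42, 2.27 and 1.72 in IntD mice 14, 18 and 19. IntM was highest, and IntP and IntD overlapped. Cckar fell by 1.91 against the average (limma, adjusted p = 0.0472), by 2.91 against IntM (adjusted p = 0.033) and not detectably against IntD (-0.91, adjusted p = 0.529). It passed in 2 of the 10 fits that left out a mouse, and neither with edgeR (adjusted p = 0.47) nor with DESeq2 (adjusted p = 0.449) on summed reads. The secretin receptor Sctr fell by 0.92 and was lost without IntP mouse 11 (adjusted p = 0.0555) or 17 (0.0723). Glp1r at -0.87, Npy2r at -1.24 and Gpr65 at 0.08, receptors often used to tell vagal neurons apart, did not pass.

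The peptide and hormone list held 1 gene that rose and 2 that fell among 22, where 6.14% of all genes tested rose and 1.74% fell. Edn1, the vasoconstrictor peptide endothelin, differed by 1.18, Uts2b, the urotensin-related peptide, by -1.35 and Calcb, the second calcitonin gene-related peptide gene, by -1.29. Each lost its call in at least 6 of the 10 fits that left out a mouse, with adjusted p up to 0.158 for Edn1. Calca, the first such peptide gene, differed by 0.34, Tac1 by 0.22 and Vip by -1.19, none of which passed.

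Modulatory receptors coupled to G proteins included a group of higher genes. Among 10 opioid, cannabinoid, muscarinic and GABAB receptor genes, 4 rose and 1 fell, against 6.14% and 1.74% of all genes, and the median was 0.73 against 0.10. The muscarinic receptor Chrm2 was 2.87, 2.10, 2.86 and 4.60 in IntP mice 11, 12, 16 and 17 and 0.47 to 1.58 in the other 6 mice. The groups did not overlap, and Chrm2 differed by 1.97 ± 0.32 (SE; limma, adjusted p = 0.000764), a call absent with edgeR (adjusted p = 0.204) and DESeq2 (adjusted p = 0.145). Gabbr2, a subunit of the GABAB receptor, differed by 1.34, Cnr1, the main neuronal cannabinoid receptor, by 1.26 and Cnr2 by 0.70. Chrm4 fell by 0.98. Chrm2 and Gabbr2 passed whichever mouse was left out, whereas Cnr1 passed in 3 and Chrm4 in 2 of the 10 fits. The dopamine receptor Drd2 differed by 2.57 ± 0.71 (SE; limma, adjusted p = 0.024). Its 4 IntP values, 4.37, 3.99, 1.93 and 5.84 in mice 11, 12, 16 and 17, overlapped the range of 0.00 to 2.66 in the other mice. Drd2 also failed with edgeR (adjusted p = 0.0897) and DESeq2 (adjusted p = 0.0728), and without IntP mouse 17 (adjusted p = 0.153), IntP mouse 11 (0.0818), IntM mouse 20 (0.067) or IntD mouse 19 (0.0646). Adora1, the A1 adenosine receptor, differed by 1.48 and was the 1 of 12 purinergic receptors that passed. It differed from IntD by 2.53 (limma, adjusted p = 0.00655) but from IntM by 0.44 (adjusted p = 0.685), and did not pass with edgeR (adjusted p = 0.0725) or DESeq2 (adjusted p = 0.0524). Of its exonic bases, 20.1% overlap the antisense gene Mybph.

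Calls fell on 3 of the lists that hold ligand-gated channels. The glutamate list also holds transporters and receptors coupled to G proteins, Grm7 among them. Over all genes tested, 6.14% rose and 1.74% fell. The nicotinic subunits Chrnb3 (2.6) and Chrnb2 (0.55) rose among 9, and Grik4 (1.37) and Grm7 (1.06) rose among 14 glutamate receptor and transporter genes. Of 11 GABAA and glycine receptor subunit genes, 1 rose and 1 fell. Grik4 and Grm7 passed in all fits that left out a mouse, and for both genes all IntP mice lay above all others. Chrnb3 was 6.75, 6.12, 8.13 and 7.71 in IntP mice 11, 12, 16 and 17 and 2.32 to 6.44 in the others, so the ranges overlapped, and it passed in 4 of the 10 fits. None of 8 serotonin receptor genes and none of 14 TRP channel genes passed in limma. Htr3a differed by 0.53, Trpa1 by -1.01 and Trpv1 by -0.26.

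In the lists of sodium, calcium, HCN and potassium channels all calls were higher in IntP, Kcnk2 being counted under mechanosensation. Over all genes tested, 6.14% rose and 1.74% fell, so that 77.9% of all calls were higher. Of 25 sodium, calcium and HCN channel genes, 6 rose and none fell, with a median of 0.51 against 0.10 over all genes. They included Scn8a (1.00), Scn9a (0.84), Cacna1b (0.57), Cacna1e (1.09) and Hcn2 (1.09). Of 43 potassium channel genes, 8 rose and none fell, with a median of 0.40. Kcnh7, a channel of the ERG family, was 3.70, 3.55, 4.32 and 4.17 in IntP mice 11, 12, 16 and 17 and 1.58 to 3.21 in the others. Its groups did not overlap, its difference was 1.30 ± 0.27 (SE; limma, adjusted p = 0.00489), and it passed in all fits that left out a mouse, but not with edgeR (adjusted p = 0.0684). Others were Kcnk18 (1.59), Kcnh8 (1.25), Kcna4 (1.21), Kcnma1 (0.92) and Kcna6 (0.81). Kcnk18 passed in 3, Kcnh8 in 4 and Scn9a in 5 of the 10 fits that left out a mouse. Against IntD alone, neither Kcnk18 (1.01, limma, adjusted p = 0.33) nor Kcnh8 (0.55, adjusted p = 0.529) passed. Cacna1e lost its call without IntP mouse 17 (adjusted p = 0.105), 11 (0.10) or 16 (0.0997) or IntM mouse 20 (0.0748), and Hcn2 and Scn8a lost theirs in 6 and 7 of the 10 fits.

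Transcription factors of sensory neurons gave 8 higher genes and 1 lower gene among 40, against 6.14% and 1.74% of all genes. Ebf3, a helix-loop-helix factor, was 6.10, 3.87, 6.62 and 6.40 in IntP mice 11, 12, 16 and 17. It was 2.45, 2.40 and 2.26 in IntM mice 15, 20 and 26, and 2.66, 2.83 and 3.16 in IntD mice 14, 18 and 19. IntP mouse 12 was the lowest of its group and still above all IntM and IntD mice. The difference was 3.12 ± 0.45 (SE; limma, adjusted p = 0.000286). Klf5 (2.07), Onecut2 (1.61), Tbx2 (1.52), Zeb2 (1.48), Runx1 (1.41), Casz1 (1.36) and Zfhx3 (1.08) also rose, and Nhlh2 fell by 1.16. Ebf3 and Klf5 passed in every fit that left out a mouse, while Onecut2 failed without IntP mouse 16 (adjusted p = 0.0667) and Nhlh2 passed in 1 of 10. None of 8 HOX genes, which carry positional identity, passed in limma.

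A pair of receptors for secreted semaphorins moved in opposite directions. Among 56 genes of axon guidance and cell adhesion, 3 rose and 1 fell, shares near the 6.14% and 1.74% over all genes. Nrp1 was 3.75, 2.40, 3.89 and 2.34 in IntP mice 11, 12, 16 and 17, 6.25, 6.94 and 4.95 in IntM mice 15, 20 and 26, and 6.90, 5.30 and 6.77 in IntD mice 14, 18 and 19. Every IntP mouse was below every other mouse, and Nrp1 fell by 3.09 ± 0.44 (SE; limma, adjusted p = 0.000286). Nrp2 was 6.09, 6.10, 6.98 and 7.04 in IntP mice 11, 12, 16 and 17 and 3.86 to 5.38 in the others. All IntP mice were above, and the difference was 1.81 ± 0.43 (SE; limma, adjusted p = 0.0123; 0.0576 without IntP mouse 16 and 0.0685 without 17). Nrp2 did not pass with edgeR (adjusted p = 0.123) or DESeq2 (adjusted p = 0.101), whereas Nrp1 passed with both. The ligands Sema3c (2.15) and Sema3d (1.39) rose as well. Sema3c passed in all fits that left out a mouse, and Sema3d in 5 of them.

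Genes of transmitter release and the cytoskeleton changed singly. Over all genes tested, 6.14% rose and 1.74% fell. Among 35 release genes, 5 rose and 1 fell, and the median was -0.05. The calcium sensor Syt2 differed by 2.03, the vesicle protein gene Sv2c by 1.08 and Syt1 by 0.68, and Syt5 by -0.90. Syt2 was 7.70, 6.92, 7.85 and 7.74 in IntP mice 11, 12, 16 and 17 and 4.36 to 6.72 in the others, without overlap. Among 16 fibre type and cytoskeleton genes, Thy1 (2.01) and S100b (1.92) rose and the intermediate filament gene Prph fell by 0.36. Rbfox3, which encodes the neuronal nuclear protein NeuN, rose by 2.12 ± 0.31 (SE; limma, adjusted p = 0.000342). It was 6.32, 6.65, 6.90 and 6.95 in IntP mice 11, 12, 16 and 17 and 4.06 to 4.88 elsewhere. Snap25, a general neuronal gene of the same marker list, differed by 0.26 and did not pass. Among 26 G protein and RGS genes, Rgs10 (1.37) and Rgs7 (0.68) rose and Gna11 (-0.44) fell.

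**Figure D3:**
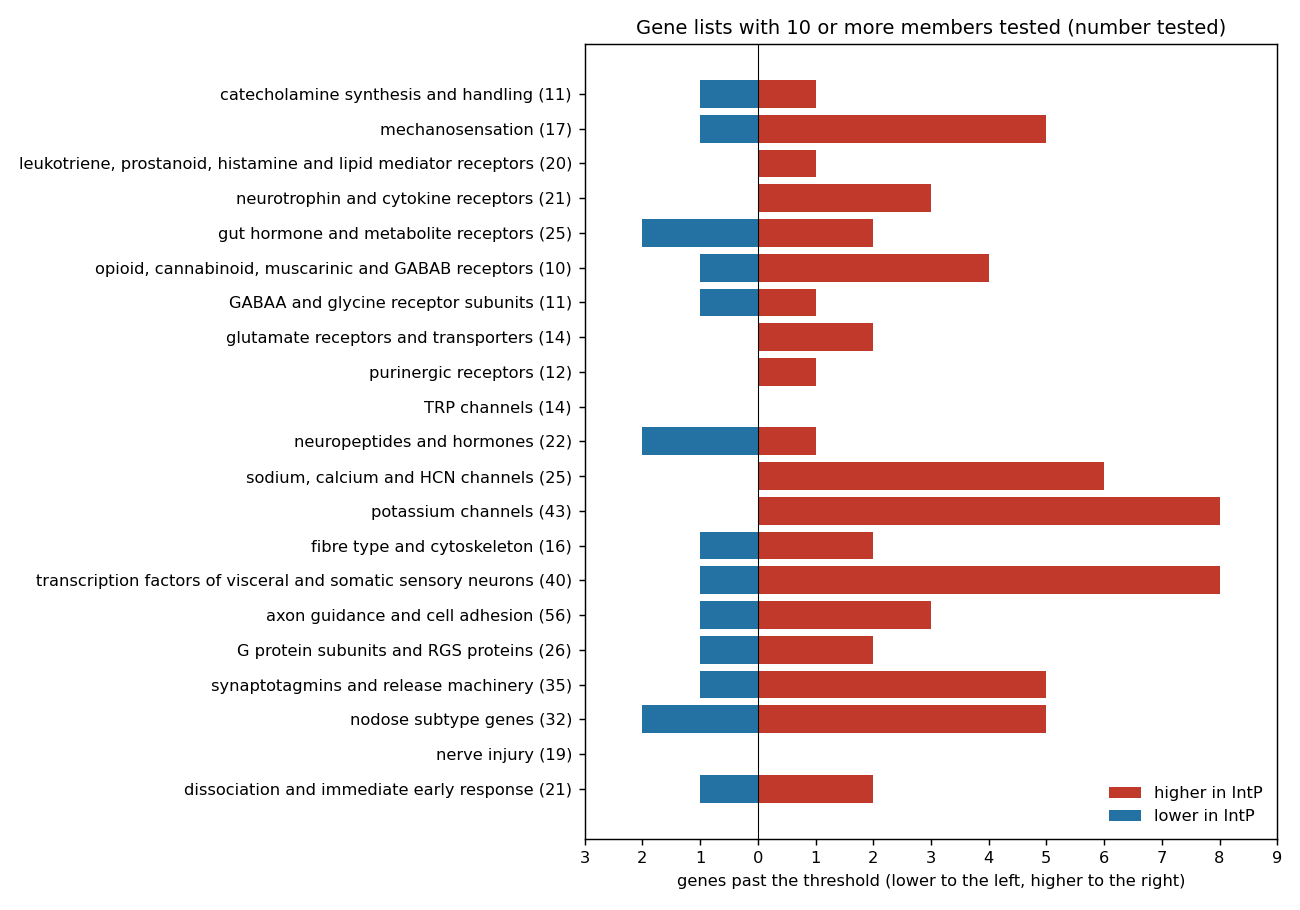
Counts of genes higher (right) and lower (left) in IntP, adjusted p under 0.05 in limma, for each gene list with 10 or more tested members. The potassium channel and transcription factor lists each hold 8 higher genes, among 43 and 40 tested, where 6.14% of all genes tested were higher.

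Outside the lists, the 12 highest differences were led by Pde11a, a phosphodiesterase that breaks down cyclic nucleotides. Pde11a was 4.61, 3.93, 4.80 and 5.27 in IntP mice 11, 12, 16 and 17, 1.33, 1.85 and 1.63 in IntM mice 15, 20 and 26, and 1.14, 1.60 and 1.75 in IntD mice 14, 18 and 19. A gap of over 2 units separated the sides, and the difference was 3.10 ± 0.48 (SE; limma, adjusted p = 0.000532). Ackr4, an atypical receptor that takes up chemokines, was 3.22 to 4.93 in IntP and 1.08 to 1.47 in the other mice. Its difference was 2.70 ± 0.32 (SE; limma, adjusted p = 2.13e-05; with edgeR 0.0615). The others were Amigo3 (2.57), Tmem158 (2.54), the receptor phosphatase gene Ptprf (2.48), the prokineticin receptor gene Prokr2 (2.36), Nxn (2.27), Klhdc8a (2.27), Thsd7a (2.25), the synaptic vesicle gene Synpr (2.22), Lrrn2 (2.21) and the tetraspanin gene Tspan8 (2.20). Pde11a, Ackr4, Tmem158, Ptprf, Nxn, Lrrn2 and Tspan8 passed whichever mouse was left out. On summed reads, Lrrn2 did not pass with edgeR (adjusted p = 0.124) or DESeq2 (adjusted p = 0.0703). Nor did Klhdc8a with edgeR (adjusted p = 0.128) or DESeq2 (adjusted p = 0.0966). Mfap5, a matrix protein gene of the nodose subtype list, rose by 2.44 ± 0.41 (SE; limma, adjusted p = 0.00127).

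The 12 lowest differences outside the lists began with Slc12a7, a potassium and chloride cotransporter. Slc12a7 was 1.19, 1.99, 2.10 and 0.66 in IntP mice 11, 12, 16 and 17. It was 5.07, 5.65 and 4.16 in IntM mice 15, 20 and 26, and 4.68, 3.61 and 5.09 in IntD mice 14, 18 and 19. All IntP mice were below all others, and it fell by 3.22 ± 0.49 (SE; limma, adjusted p = 0.000514). The adhesion gene Cntn5 followed with -2.77, and then Crtac1 with -2.68, the cGMP phosphodiesterase Pde9a with -2.49, the glypican Gpc3 with -2.43 and Nyap2 with -2.33. Adrbk2, a kinase of activated receptors, differed by -2.26, Cd63 by -2.19, Nnat by -2.03, Gprc5c by -2.0, Ak5 by -1.84 and Galnt18 by -1.81. Slc12a7, Cntn5, Crtac1, Pde9a, Nyap2, Adrbk2 and Gprc5c passed whichever mouse was left out. On summed reads, Adrbk2 did not pass with edgeR (adjusted p = 0.439) or DESeq2 (adjusted p = 0.449), nor Pde9a with edgeR (adjusted p = 0.129). Gpc3 and Ak5 also failed with edgeR (adjusted p = 0.222 and 0.145) and DESeq2 (adjusted p = 0.15 and 0.0856). Cd63 failed with edgeR (adjusted p = 0.0628).

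The share of cells that held a gene was also read for 20 genes, the 4 markers and 8 genes of each direction. They were chosen for their difference in mouse means, to which the share contributes in the same mice. Their shares are therefore a description, and that 16 of them passed the exact permutation test after adjustment adds no evidence. Prokr2 had 10 or more reads in 47.9% ± 17.6 of the cells of an IntP mouse (SD, n = 4) and 2.2% ± 3.4 of those of another mouse (SD, n = 6). Slc12a7 had them in 27.2% ± 9.8 and 81.4% ± 15.6. Crtac1 was the opposite case, with 100% and 99% of cells. Its level in the cells that held it was 6.52 in IntP and 9.21 in the others. The number that passed was 10 with a minimum of 1 read and 10 with a minimum of 100 reads. With 100 reads, the share for Crtac1 was 35.1 percentage points lower in IntP.

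Markers of other cells were read beside these differences. None of 8 satellite glia markers passed, and their median difference was -0.52. Their summed level was 272.5 to 1036 CPM in IntP mice, 644 to 1287 in IntM and 757 to 846 in IntD, so the ranges overlapped. None of 7 Schwann cell markers passed, with summed levels of 591 to 926, 609 to 1188 and 912 to 1768 CPM. The immune markers summed to 0.83 to 152.8 CPM in IntP and to under 4 CPM in every other mouse, and the immune gene Ptprc reached 10 reads in 0% of cells of each code. Of the nerve injury list, 0 of 19 genes passed in limma. Of 21 dissociation and immediate early genes, Hsp90aa1 (0.56) and Jund (0.37) rose and Hspa8 fell by 0.28. Over all genes tested, 6.14% rose and 1.74% fell. Jund passed in 3 of the 10 fits that left out a mouse, was 0.09 with DESeq2 (adjusted p = 0.714), and shares 52.6% of its exonic bases with the antisense gene Gm11175. The part of these RNAs in the differences was not tested.

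The contrasts with IntM and IntD were also fitted apart. They share the IntP mice, so their values are given side by side and no overlap is counted. Against IntM, 2.65% of the genes passed (1.99% higher, 0.653% lower), and against IntD 3.82% (3.09% higher, 0.732% lower). Pde11a differed by 3.05 and 3.16 from IntM and IntD, Ebf3 by 3.38 and 2.87, Nrp1 by -2.96 and -3.23, and Rbfox3 by 2.30 and 1.94. These shares were unstable to single mice. Against IntM the share ran from 0.283% without IntP mouse 17 to 8.19% without IntP mouse 12. It was 0.417% and 0.48% without IntP mice 11 and 16, and 1.27%, 0.409% and 0.323% without IntM mice 15, 20 and 26. Against IntD it ran from 0.331% without IntD mouse 19, the mouse with 4 cells, to 8.39% without IntP mouse 12. It was 1.17%, 1.25% and 0.874% without IntP mice 11, 16 and 17, and 2.2% without IntD mouse 14.

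Dbh was next read across all 7 codes, over 29 mice. IntP had 7.15 ± 1.04 (SD, n = 4), and the means of the other 6 codes lay between 1.43 and 2.74, IntD being the nearest. The lowest IntP mouse, at 6.20, was above the highest mouse of any other code, at 3.69. Piezo1 was 4.76 ± 0.65 in IntP and 3.63 ± 0.51 in GastP (SD, n = 4 and 3), whose ranges of 3.83 to 5.20 and 3.14 to 4.15 overlapped. Cysltr2 was 6.79 ± 0.88 in IntP and 5.98 ± 2.27 in GastP, and Gfra2 6.14 ± 0.40 and 5.78 ± 1.35, again with overlap. GastG, with 5 mice, also reached into the IntP range for these genes. Its highest mice were at 4.31 for Piezo1, 6.61 for Cysltr2 and 6.78 for Gfra2. The lowest IntP mice were at 3.83, 5.6 and 5.68. Ebf3 was 5.75 ± 1.27 in IntP and 3.9 ± 1.56 in GastP, with overlapping ranges of 3.87 to 6.62 and 2.95 to 5.7. These levels are a description, without a test.

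The genes whose mouse means were most like those of Dbh over the 29 mice were Chrm2 and Fam163b (Pearson r = 0.88 each), Pla2r1 (0.86), Ackr4 (0.84) and Sesn3 (0.84). The points share the difference of IntP from all other codes, so no p-value is attached. Fam163b is also a neighbour of Dbh on chromosome 2, at 27110380 to 27142491 on the minus strand, 22.7 kb away. It was 1.48, 1.13, 2.65 and 1.90 in IntP mice 11, 12, 16 and 17 and 0.00 to 1.20 in the others. The ranges overlapped slightly, and the difference was 1.36 ± 0.25 (SE; limma, adjusted p = 0.00278; with edgeR 0.257). Of 11 other tested protein-coding genes within 250 kb of Dbh, Fam163b was the only one that passed, a share near the 7.88% of all genes tested. The nearer Sardh, 5.2 kb from Dbh, differed by -0.07.

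Whether the groups held different neuron types was examined with the 10x library, whose 1087 neurons formed 28 clusters. Each picked cell was matched to the cluster with the highest Spearman correlation over 587 leading genes. The library came from younger animals, no doublet caller was run on it, and no source states whether doublets had been removed. When genes were centred within each protocol, 67.9% of all picked cells kept their cluster, so the cluster of a single cell is uncertain. The clusters are called by number here. Cluster 9 was led by Dbh, Ifi27l2a, Dcdc2a and Mfap5, and cluster 13 by Gpr65, Rasgrf2 and Galc. In IntP mice 11, 12, 16 and 17, cluster 9 took 47.1%, 40%, 28.6% and 83.3% of the cells. In IntM mice 15, 20 and 26 it took 6.7%, 15.4% and 11.8%, and in IntD mice 14, 18 and 19 11.8%, 28.6% and 0%. IntP mouse 16 and IntD mouse 18 had the same share, and the other IntP mice were higher. The means were 49.7% ± 23.7 (SD, n = 4) and 12.4% ± 9.6 (SD, n = 6; two-sided exact permutation test, p = 0.019, adjusted p = 0.0952 over 5 clusters), so the difference did not pass after adjustment. Since Dbh and other genes that differed are among the matching genes, this share is not independent of them. Matching again with the 525 genes that were not called gave 39.5% ± 18.2 and 12.4% ± 9.6 (exact permutation p = 0.019, adjusted p = 0.0952).

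Cluster 13 took more of the other cells, 56.2% ± 25.9, than of IntP cells, 40.8% ± 22.7 (exact permutation test, adjusted p = 0.352). Cluster 0, led by Uts2b and Cckar, took 0% of IntP cells and 9.0% ± 9.5 of the others, and cluster 1, led by Efcab6, Bub3 and Trpa1, 4.6% ± 5.7 and 14.7% ± 11.8. None of the 5 cluster shares passed after adjustment, and each mouse gave 4 to 17 cells. With genes centred within each protocol, cluster 9 did pass, with the higher share in IntP. Fewer cells of a type cannot be told apart from a lower level per cell in the mouse means alone.

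**Figure D4:**
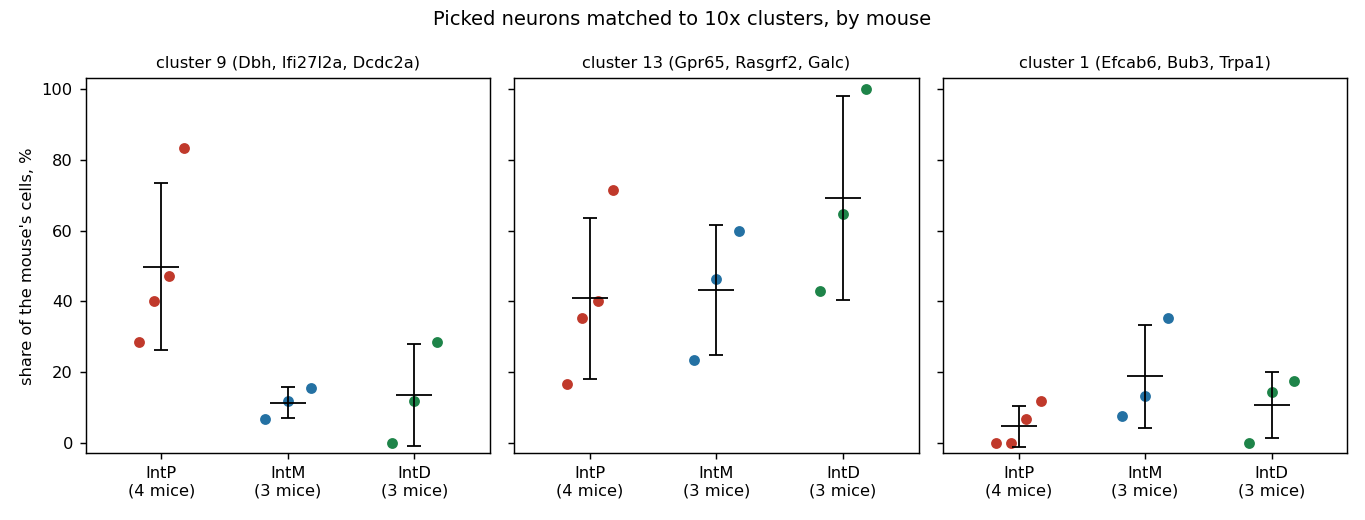
Share of the cells of each mouse (percent) matched to 10x clusters 9, 13 and 1. Each dot is 1 mouse, and lines with bars give the mean ± SD of each code (4 IntP, 3 IntM and 3 IntD mice). The IntP mice reach 83.3% in cluster 9, where the other mice do not exceed 28.6%.

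The gene differences were therefore repeated within matched cells. In cells matched to cluster 13 alone, with 17 IntP, 19 IntM and 21 IntD cells from 3 mice of each code, 73 genes passed (46 higher, 27 lower), and 48 of them were among the original calls. Dbh differed by 3.51 ± 0.56 (SE; limma, adjusted p = 0.0195) there. Pde11a (3.33), Rbfox3 (2.14) and Piezo1 (2.03; adjusted p = 0.0499) also rose. Nyap2 (-3.76), Nrp1 (-3.49), Kcnk2 (-2.81), Cntn5 (-2.80) and Crtac1 (-2.46) fell. Gfra2 (1.92, adjusted p = 0.0684), Ebf3 (2.20, adjusted p = 0.0761) and Cysltr2 (1.17, adjusted p = 0.395) did not pass in these cells. Nyap2, Nrp1, Kcnk2, Cntn5 and Rbfox3 were not among the genes used for matching, whereas Dbh, Piezo1, Pde11a and Crtac1 were.

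When the cells matched to cluster 9 were left out, IntP mouse 17 dropped out, and 23 IntP, 40 IntM and 29 IntD cells remained. In these cells 1.35% of the genes passed, 94.7% of them among the original calls. Dbh differed by 3.70 (limma, adjusted p = 0.00512) and Piezo1 by 2.49 (adjusted p = 0.0149), whereas Gfra2 (2.33, adjusted p = 0.0864) and Cysltr2 (1.98, adjusted p = 0.118) did not pass. In cluster 9 cells alone, which left 4 IntP, 2 IntM and 2 IntD mice with 2 or more such cells, 0 genes passed in limma and 1714 had an unadjusted p under 0.05. Dbh differed by 5.44 there (adjusted p = 0.107) and Ebf3 by 3.34 (adjusted p = 0.0799). In the 10x library itself, Dbh had 69.6 CPM in cluster 9 and 32.2 CPM in cluster 13, each summed over the cells of 1 library.

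**Figure D5:**
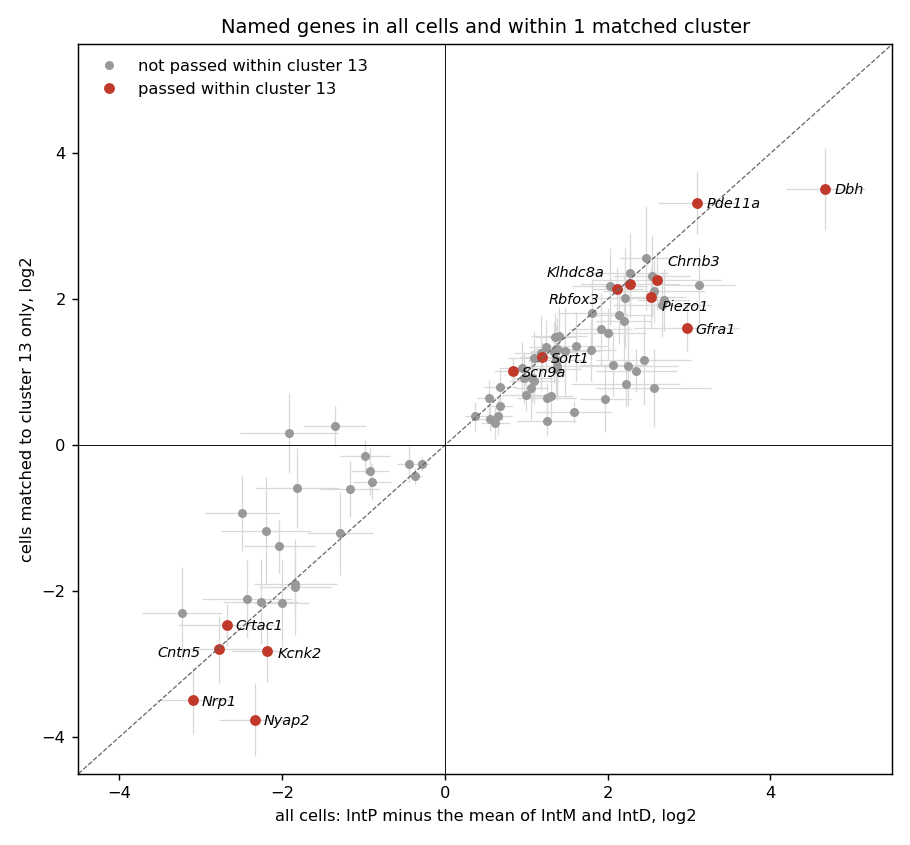
Differences of IntP from the average of IntM and IntD (log2) for the named genes that passed, over all cells (horizontal) and in cells matched to cluster 13 only (vertical), with SE bars; the dashed line marks equal values. Dbh lies at 4.68 and 3.51, and Nrp1 at -3.09 and -3.49.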

How the data were processed

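Cells were dissociated and prepared with Smart-seq2 and Nextera or, for 1 library, 10x Genomics, per the labels' protocols. The authors deposited log2 reads per gene for the picked cells on mouse build mm10, with a floor of -5.64 for 0 reads, not scaled for depth; no source names their aligner or counter. The deposited 10x file holds UMI counts from Cell Ranger 2.0.1, per the submitters' processing notes. Per the file headers, the mouse and target code of each cell were read; 1 column that matched no sample was not used. Values were turned back into reads (94.1% whole within 1 part in 1000), scaled to CPM and averaged as log2(CPM + 1) over the cells of each mouse with 4 or more cells. The comparison held 125 of 449 picked cells.

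Genes with 10 or more reads in at least 5% of cells were fitted with limma 3.58.1 (R 4.3.3, intensity trend) over 29 mice of 7 codes, with Benjamini-Hochberg adjustment over all 12702 genes. Shares of cells were compared by two-sided exact permutation tests over mice (scipy 1.17.1). The 10x neurons were clustered with scanpy 1.11.5 and leidenalg 0.10.2; 93.9% of them returned to their own cluster by the matching used, and the median correlation of picked cells was 0.73, but 67.9% of picked cells kept their cluster when genes were centred within each protocol. No doublets were removed. Alternatives used edgeR 4.0.16 and DESeq2 1.42.0 on summed reads. The fit, the matching and the permutation test were tested on simulated data. Gene coordinates are from GENCODE annotation of GRCm38.

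Named genes were the 4 markers, the 12 highest and 12 lowest calls outside the gene lists, up to 3 per direction in each list, all tested catecholamine genes and the 5 genes most like Dbh; Mfap5, Tmem63b, Tmem63c, Cnr2 and other called list members were added after their values were seen. The members and lists were chosen with earlier results of these data known. Some genes that the rule or the lists would name are not reported here.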

Additional observations from a re-analysis of the deposited data

Results flagged for a closer look

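In the group of 4 IntP mice, 5.1% of the sets of values examined, 5 in all, had 1 mouse far from the other 3, and chance alone marks about 1 set in 20. Mouse 12 was the low one for Chrnb2 (6.52), Cacna1e (6.08) and Syt2 (6.92), in mean log2(CPM + 1). Mouse 16 was the high one for Jund (5.82). In mouse 11, 5.9% of cells were matched to cluster 17, against 0% in the other IntP mice.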

How the results depend on the processing

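The share of genes tested that differed from the average of IntM and IntD was 7.88%, and the number of genes stayed within 1.5 times of that under 7 other settings, among them DESeq2 (7.59%), TMM scaling (7.21%) and no filter on low values (743 of 18775 genes). It was 4.2% with edgeR, 3.61% with mice weighted by their number of cells, 0.787% in mice numbered 14 to 17, 1.35% without cluster 9 cells, 0.575% in cluster 13 cells and 0 in cluster 9 cells, and 1.73% to 13.3% when 1 mouse was left out. Against IntM (2.65%) it was 1.65% with TMM, 1.57% in cells of 4000 or more genes, 0.685% with edgeR, 1.19% weighted, 0 in mice 14 to 17 (limma, 1186 genes at an unadjusted p under 0.05), 0.543% of 18775 genes without a filter, 0.244% without cluster 9 cells and 0.283% to 8.19% with 1 mouse left out. Against IntD (3.82%) it was 1.2% with edgeR, 0.842% weighted, 0.0787% in mice 14 to 17, 1.35% without a filter, 0.622% without cluster 9 cells and 0.331% to 8.39% with 1 mouse left out. The causes were not tested. Of the 20 shares of cells, 10 passed at 1 read, 10 at 100 reads and 12 to 16 with 1 mouse left out. Centring genes within each protocol gave 1 cluster of 5 with a different share. Matching without the called genes gave 0 and was chosen after seeing the data, as were the fits in cluster 13 cells and in cluster 9 cells.

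Directions turned for some genes, called and uncalled. In cluster 9 cells Nnat was 0.54, Sctr 0.00, Nhlh2 0.01, Jund -0.21 and Maob -0.09. In cluster 13 cells Cckar was 0.17, Uts2b 0.27, Gch1 -0.73 and Slc18a1 0.50. Without cluster 9 cells Gch1 was -0.06 and Qdpr -0.03. Ddc was 0.42 with DESeq2, 0.46 with edgeR and 0.00 in mice 14 to 17. Qdpr was -0.07 with DESeq2, -0.02 with TMM, -0.06 with edgeR, -0.07 in mice 14 to 17, -0.02 without IntD mouse 19, IntM mouse 15 or IntP mouse 12 and -0.01 without IntP mouse 11, with a range of -0.02 to 0.06 when 1 mouse was left out. The share for Crtac1 was -35.1 points at 100 reads, and that for cluster 17 was 0.3 points when centred. In mice 14 to 17, where 2 IntP, 1 IntM and 1 IntD mice remain and a lone mouse is assumed to vary like the others, Dbh (5.72, limma adjusted p = 0.000242), Piezo1 (3.26, 0.0302) and Ebf3 (3.96) passed, whereas Cysltr2 (3.17, 0.119) and Gfra2 (3.29, 0.102) did not, and 68 of the 93 named genes lost their call. Cluster 9 cells in mice with 3 or more such cells could not be fitted, since no IntM mouse had them. No paired analysis was possible because the codes share no mouse numbers. The 4 to 17 cells per mouse limit the shares, and 4 against 6 mice cannot give an exact p under 0.00952.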

Other observations

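A further 4 mice carried the code na, which no source explains, and were left out of every comparison. Their Dbh means were 3.37 in mouse 31 (15 cells), 2.80 in mouse 32 (8 cells), 0.72 in mouse 36 (15 cells) and 3.11 in mouse 37 (15 cells), in log2(CPM + 1). Piezo1 was 1.42, 2.42, 2.00 and 2.81 in the same mice, Cysltr2 2.76, 4.86, 3.61 and 4.98, and Gfra2 3.61, 4.02, 3.88 and 4.01.

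Within the cells matched to cluster 13, genes outside the lists also passed. Ednra, an endothelin receptor, differed by 1.76 and Egr4, an immediate early transcription factor, by 1.40, and the relaxin family receptor Rxfp3 by -2.01 (limma, adjusted p = 0.00685, 0.0073 and 0.0355). Kcns3, a potassium channel subunit that did not pass over all cells, differed by 2.22 there. These 4 were chosen after their values were seen.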
